A study of Mus musculus with 15 samples.

Results

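The comparison of the AngII group with the NS group held 10 of the 15 libraries of the series, 5 of each, chosen by their group label. C57BL/6 mice aged 10 weeks gave the vascular tissue of all 15 libraries. The NS libraries carry the treatment label Normal and the AngII libraries the label Hypertension. The labels give no dose, route or duration for AngII, read here as angiotensin II, no sex, and no agent given to the NS mice. The other 5 libraries, labelled Hypertension+Lien, entered the fit only to estimate the spread between libraries. RNA was sequenced after removal of ribosomal RNA, and the question, per the title of the series, concerns vessel remodeling under angiotensin II and signalling by MAP kinases and by TGF-β and its Smad proteins. Every one of 15586 genes with at least 0.5 FPKM (fragments per kilobase of transcript, scaled to library depth) in at least 5 libraries was compared. The labels do not say whether the libraries of a group came from separate mice. The p-values set the group difference against the spread between libraries of a group, which may thus in part be technical.

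Angiotensin II is a peptide hormone that acts on vascular smooth muscle mainly through its type 1 receptor, which raises calcium, activates the small GTPase RhoA and contracts the vessel. The same receptor switches on the MAP kinases ERK, p38 and JNK, which are held in check by dual-specificity phosphatases and by Sprouty proteins whose own genes the kinases induce. Over longer times the hormone is known for thickening the vessel wall, with collagen made by smooth muscle cells and fibroblasts under TGF-β, and for inflammation of the adventitia.

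RNA of tissues next to the vessel differed between the 10 libraries and is given first, because some of it moved with the groups. Contractile smooth muscle markers averaged 6.14 to 6.95 as log2(FPKM + 1) in NS and 6.02 to 7.03 in AngII, so the defining markers of the labelled tissue were present in each library. Hearts are named instead in the extraction protocol. Myh6, the atrial and ventricular myosin heavy chain of mice, was at 176, 0.0196, 0.451, 29.1 and 338 FPKM in NS 1 to NS 5 and 0.193, 0.0829, 146, 0.0182 and 0 in AngII 6 to AngII 10. It was thus high in NS 1, NS 5 and AngII 8, intermediate in NS 4 and near 0 in the other 6. Of the 12 cardiomyocyte markers, 10 had NS 1, NS 5 and AngII 8 as their 3 highest libraries, though Ryr2, the calcium release channel, differed little (1.86 to 5.74 FPKM in NS and 1.75 to 4.60 in AngII). The exceptions were Mybpc3, which was above 0 in NS 4 and AngII 8 alone, and Myh7, which was highest in AngII 9. Markers of fast skeletal muscle averaged 9.06 in NS 3 and 6.40 in AngII 9 but at most 2.56 elsewhere. Sympathetic neuron markers averaged over 5 in NS 2, NS 3, AngII 6 and AngII 9, and T cell markers over 3 in AngII 7 and AngII 9. Brown fat was present throughout, with Ucp1, the uncoupling protein of brown fat, at 249.7 to 1477 FPKM in NS and 359 to 933 in AngII. White fat markers averaged 7.496 to 8.118 in NS and 7.152 to 7.77 in AngII, above the smooth muscle mean in every library. Fabp4, a fatty acid binding protein of fat cells, was at 2349 to 4100 FPKM in NS and 2467 to 4410 in AngII. The median difference of the white fat markers was -0.15, and none passed. These means do not give the share of fat in a library. Posterior Hox genes, which mark position along the body axis, were higher in AngII for all 6 tested (median 0.66), and none passed. Hoxa10 was at 0, 2.88, 8.00, 0 and 0 FPKM in NS 1 to NS 5 and 4.93, 6.46, 0.575, 3.56 and 2.71 in AngII 6 to AngII 10. Middle and anterior Hox genes had medians of 0.05 and 0.06. Whether the vessel segment taken differed was not tested. In such bulk samples, fewer cells of a type and less RNA per cell cannot be told apart.

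**Figure D1:**
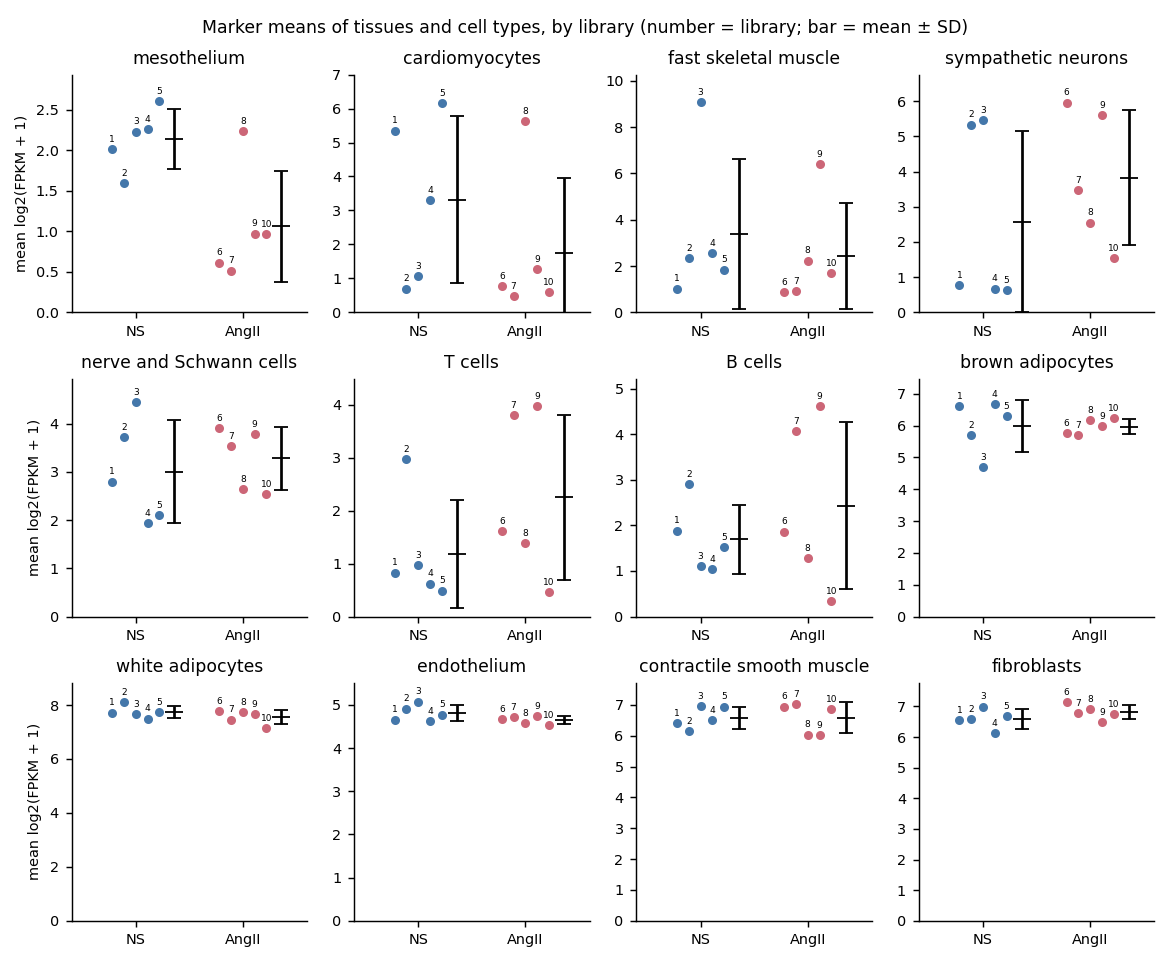
Mean log2(FPKM + 1) of the marker genes of 12 tissues and cell types in the 5 NS and 5 AngII libraries. Each point is a library with its number, and the bar beside the points is the mean ± SD. The mesothelial mean was lower in 4 AngII libraries than in every NS library, while AngII 8 stood within the NS range. The cardiac, skeletal muscle, neuronal and lymphocyte means were set by a few libraries of both groups.

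Few genes separated the groups beyond the spread between libraries. With limma on log2(FPKM + 1), 12 of 15586 genes (0.077%) passed at an adjusted p under 0.05, of which 4 rose (0.0257%) and 8 fell (0.0513%) in AngII. The genes that fell were Dusp10, Irs2, Adamts4, B3gat2, Spry4, Dlc1, Tcf15 and Bcl6b, and those that rose were Gadd45b, Kcna5, Mc5r and Klf15. At an unadjusted p under 0.05 there were 1097 genes (7.04%), 847 higher (5.43%) and 250 lower (1.6%) in AngII. The groups did not overlap for 236 genes on the higher side (1.51%) and 81 on the lower side (0.52%). Values were higher in AngII for 70.1% of all genes at any size, and the median difference of all genes was 0.12 on the log2 scale as deposited. That median became 0.00 with quantile normalization or with scaling to one median, and list medians below are read against it. The 2 values called scaled below are medians with quantile normalization and with scaling to one median, in that order. The 1097 genes then turned into 460 higher and 576 lower with quantile normalization, and into 439 higher and 498 lower with scaling to one median. At the adjusted threshold, 11 of the 12 genes kept their call with quantile normalization, all but Mc5r, among 23 that passed. With scaling to one median 4 of the 12 kept it, Dusp10, B3gat2, Adamts4 and Gadd45b, among 6 that passed. The other 8 then had an adjusted p of 0.0692 to 0.144 in limma.

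The count of 12 depended on single libraries. With NS 1 or AngII 8 left out it was 1. Dropping NS 2, NS 4 or AngII 7 gave 2 genes, and dropping AngII 6 or AngII 9 gave 3. It was 4 in the fit lacking NS 5, 6 in that lacking AngII 10 and 15 in that lacking NS 3. B3gat2 kept its call in each of these 10 fits and Dusp10 in 8, failing when NS 1 was dropped (adjusted p = 0.0583) and when AngII 8 was (adjusted p = 0.0649). B3gat2 entered all of these fits through the NS and Lien libraries alone, since no AngII library reached the 0.5 FPKM of the filter. Its repeated call is therefore not independent support. The count was 0 with a mesothelial covariate (764 genes at an unadjusted p under 0.05 in limma), 0 with cardiac and skeletal muscle covariates (896) and 0 without NS 1, NS 5 and AngII 8 (701), and 1 without AngII 7 and AngII 9. Kcna5, Adamts4 and Gadd45b passed without NS 3 or AngII 10, Bcl6b without NS 3 or AngII 6, Klf15 without NS 3 or NS 5, Irs2 without NS 5, and Mc5r, Dlc1 and Spry4 without NS 3, and these genes passed in none of the other fits without 1 NS or AngII library. Tcf15 passed in none of the 10. The adjusted p of these 10 genes reached at most 0.157, for Spry4. The count was 24 with a nerve covariate. In a fit of the 10 libraries alone it was 19, with 9 of the 12 among them. Klf15, Dlc1 and Spry4 did not pass there (limma adjusted p = 0.0814, 0.0826 and 0.109). Sik1, Tob1 and Cldn5, which are described below and missed the threshold with all 15 libraries, did pass there (limma adjusted p = 0.0405, 0.0427 and 0.0482). Under each of these settings the differences of the 12 genes kept their sign.

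**Figure D2:**
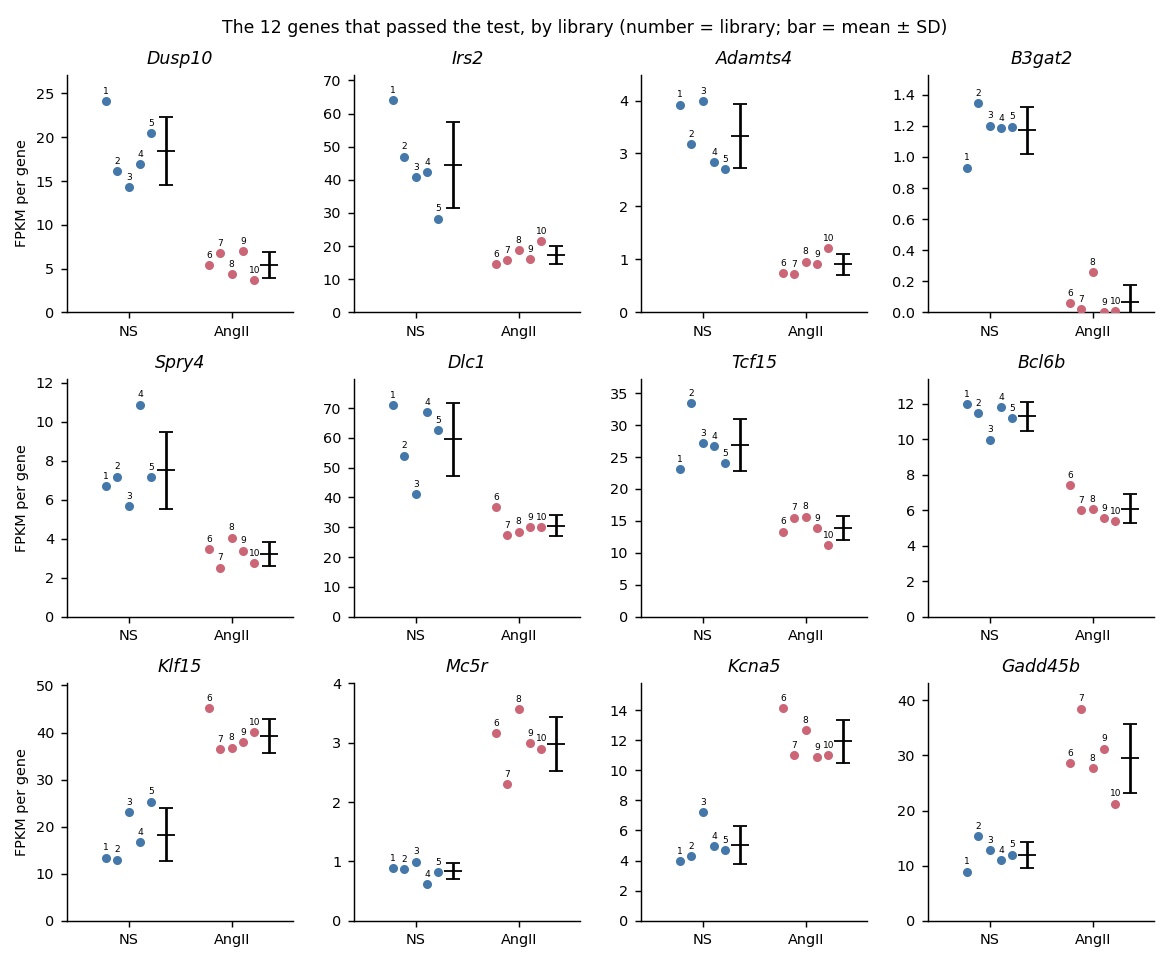
FPKM of the 12 genes that passed the test in each NS and AngII library. Each point is a library with its number, and the bar beside the points is the mean ± SD. The groups do not overlap for any of the 12 genes, 8 of which were lower and 4 higher in AngII.

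Brakes of MAP kinase signalling were among the genes that fell. Dusp10 encodes a phosphatase that removes phosphate from p38 and JNK. It was at 24.1, 16.1, 14.3, 16.9 and 20.5 FPKM in NS 1 to NS 5 and 5.38, 6.80, 4.36, 6.97 and 3.65 in AngII 6 to AngII 10. Every NS library lay above 14 FPKM and every AngII library below 7 (fell, log2 -1.60 with SE 0.21, adjusted p = 0.0124 in limma). The gene spans chr1:184013302-184075636 on the plus strand (GRCm38). The difference was -1.14 among the 5 libraries rich in nerve RNA (NS 2, NS 3, AngII 6, AngII 7 and AngII 9) and -2.09 among the other 5. Spry4, a feedback inhibitor of receptor tyrosine kinases, stood at 6.68, 7.18, 5.69, 10.9 and 7.18 FPKM in the NS libraries, in order of their number, and at 3.46, 2.52, 4.05, 3.39 and 2.74 in the AngII libraries. NS 4 was the highest, and no AngII library reached the lowest NS value (fell, log2 -0.99 with SE 0.17, adjusted p = 0.0461 in limma). It lies within chr18:38586247-38601415 on the minus strand. Its adjusted p over the fits without 1 library ran from 0.0403 to 0.157.

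Of the 9 MAP kinase phosphatases tested, 1 fell, none rose and 8 did not pass, with a median of -0.46 against 0.12 for all genes (-0.59 and -0.58 scaled). Without overlap of the groups, 2 of the 9 were lower, against 0.52% of all genes, and none higher, against 1.51%. Dusp4, which acts on ERK and JNK in the nucleus, stood at 22.5, 19.5, 18.3, 23.1 and 15.2 FPKM in the NS libraries, in order of their number, and at 6.50, 7.16, 11.4, 7.66 and 8.14 in the AngII libraries, without overlap (log2 -1.18 with SE 0.25, adjusted p = 0.108 in limma). Dusp6, the cytoplasmic phosphatase of ERK, was at 19.2 to 32.98 FPKM in NS and 15.9 to 21.3 in AngII (log2 -0.53 with SE 0.15, adjusted p = 0.358 in limma), and AngII 8 alone of its group entered the NS range. Dusp7, another ERK phosphatase, went the other way at 5.13 to 8.33 FPKM in NS and 7.36 to 17.4 in AngII (log2 0.70 with SE 0.22, adjusted p = 0.477 in limma). Dusp1, the most abundant of them, was at 131 ± 26.9 FPKM in NS and 135 ± 46.6 in AngII (SD, n = 5 each) and its difference of 0.01 changed sign with either scaling. Of the 6 Sprouty and Spred genes 1 fell, Spry4, and none rose, with 4 higher and 2 lower and a median of 0.17 (0.03 and 0.02 scaled). Spry2, another feedback inhibitor, was also lower without overlap, at 8.39 to 9.45 FPKM in NS and 5.24 to 7.37 in AngII (log2 -0.38 with SE 0.13, adjusted p = 0.557 in limma), and was named after its value was seen. Spry1 stood at 13.02, 14.3, 18.01, 12.3 and 13.2 FPKM in the NS libraries, in order of their number, and at 27.7, 22.5, 31.2, 21.8 and 24.4 in the AngII libraries. Its groups did not overlap and the direction was opposite to that of Spry4, though it did not pass (log2 0.81 with SE 0.17, adjusted p = 0.108 in limma). Thus 2 of the 6 Sprouty and Spred genes were lower without overlap, against 0.52% of all genes, and 1 higher, against 1.51%.

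Of the genes of the kinase cascades themselves 1 passed. Of 19 genes of the ERK cascade none passed (14 of 19 higher, median 0.12; -0.02 and -0.02 scaled), and none had an unadjusted p under 0.05. Mapk3, which encodes an ERK kinase, was at 75.1 ± 24.9 FPKM in NS and 83.5 ± 25.2 in AngII (SD, n = 5 each). Of 18 genes of the p38 and JNK cascades 1 rose, Gadd45b, and 17 did not pass (median 0.06; -0.07 and -0.09 scaled). Gadd45b encodes a stress-induced protein that binds an upstream kinase of p38 and JNK. It was at 8.92, 15.4, 12.8, 11.1 and 11.99 FPKM in NS 1 to NS 5 and 28.7, 38.5, 27.6, 31.2 and 21.3 in AngII 6 to AngII 10. The lowest AngII library, AngII 10, exceeded the highest NS library, NS 2 (rose, log2 1.22 with SE 0.19, adjusted p = 0.0309 in limma). The gene lies at chr10:80930073-80932204 on the plus strand. Mapk14, which encodes p38α, was at 12.9 to 31.1 FPKM in NS and 9.77 to 18.9 in AngII (log2 -0.64 with SE 0.26, adjusted p = 0.666 in limma).

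Early response genes, which MAP kinases and calcium induce within minutes, did not move together. None of 24 passed, 13 were higher and 11 lower, and the median was 0.06 (-0.05 and -0.09 scaled). At an unadjusted p under 0.05, 4 of 24 were lower (against 1.6% of all genes) and 1 higher (against 5.43%). Fosl2, an AP-1 subunit, was at 21.2 to 32.1 FPKM in NS and 14.3 to 19.2 in AngII, without overlap (log2 -0.66 with SE 0.18, adjusted p = 0.332 in limma). Atf3, a stress-induced transcription factor, was at 20.01 to 40.1 FPKM in NS and 8.26 to 23.8 in AngII and overlapped through AngII 6 (log2 -1.10 with SE 0.34, adjusted p = 0.473 in limma). The others were Egr3 at -0.94, Nr4a1 at -1.29 and, on the higher side, Phlda1 at 0.56 on the log2 scale, of which Nr4a1 was picked after its value was seen.

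The genes nearest the threshold on the lower side had varied functions. Sik1, a salt-inducible kinase that restrains cAMP-driven transcription, stood at 54, 36.8, 35.3, 38.03 and 31.8 FPKM in the NS libraries, in order of their number, and at 13.01, 14.03, 11.2, 4.80 and 10.3 in the AngII libraries. All NS libraries lay far above all AngII libraries, yet the gene did not pass in the fit of all 15 libraries (log2 -1.83 with SE 0.33, adjusted p = 0.0692 in limma). Tob1, an inhibitor of cell proliferation, was at 82.5 to 128 FPKM in NS and 39.7 to 64.4 in AngII (log2 -1.14 with SE 0.21, adjusted p = 0.0684 in limma). Slc25a25, a mitochondrial carrier of adenine nucleotides, was at 11.1 to 29.96 FPKM in NS and 5.52 to 14 in AngII and overlapped between NS 5 and AngII 9 (log2 -1.42 with SE 0.29, adjusted p = 0.108 in limma). Also not passing were Il17re, a receptor of the interleukin 17 family (-0.92), and Zfp703, a transcriptional repressor (-0.85).

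Of the 19 endothelial transcription factors tested 2 fell, against 0.0513% of all genes, and neither passed with scaling to one median. Bcl6b, a transcriptional repressor of endothelial cells, was at 11.97, 11.5, 9.98, 11.8 and 11.2 FPKM in NS 1 to NS 5 and 7.42, 6.02, 6.07, 5.57 and 5.37 in AngII 6 to AngII 10. The NS libraries varied little and all lay above AngII 6, the highest of its group (fell, log2 -0.80 with SE 0.12, adjusted p = 0.0288 in limma). It maps to chr11:70224128-70229798 on the minus strand. Tcf15, a basic helix-loop-helix factor of capillary endothelium, stood at 23.1, 33.4, 27.1, 26.7 and 24.1 FPKM in the NS libraries, in order of their number, and at 13.3, 15.5, 15.7, 13.8 and 11.2 in the AngII libraries. NS 1, the lowest of its group, lay above AngII 8, the highest AngII library (fell, log2 -0.90 with SE 0.15, adjusted p = 0.0446 in limma). It maps to chr2:152143561-152149097 on the plus strand, and its call was lost in each of the 10 fits without 1 NS or AngII library, at an adjusted p of up to 0.139.

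None of the 19 endothelial transcription factors rose, and 17 did not pass. At an unadjusted p under 0.05, 2 of 19 were lower, Bcl6b and Tcf15 (against 1.6% of all genes), and 3 higher (against 5.43%). The higher ones were Foxo1 (0.51), Sox7 (0.51) and Sox18 (0.49), the last picked after its value was seen. Klf2, which responds to blood flow, was at 90.6 ± 7.84 FPKM in NS and 86.8 ± 21.04 in AngII and Klf4 at 43.8 ± 7.92 FPKM in NS and 36.8 ± 2.60 in AngII (SD, n = 5 each). The list had a median of 0.10 (-0.02 and 0.00 scaled). Of the endothelium as a whole, 15 markers had a median of 0.00 (-0.14 and -0.15 scaled), and their mean was 4.62 to 5.07 in NS and 4.54 to 4.74 in AngII. Among these markers Cldn5, which seals junctions between endothelial cells, stood at 187, 221, 225, 280.4 and 205 FPKM in the NS libraries, in order of their number, and at 82.5, 103, 111, 140.3 and 101 in the AngII libraries, without overlap (log2 -1.06 with SE 0.21, adjusted p = 0.0833 in limma). Gpr4, a proton-sensing receptor of endothelium, was at 6.31 to 9.22 FPKM in NS and 3.84 to 5.42 in AngII (log2 -0.61 with SE 0.13, adjusted p = 0.108 in limma).

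None of 16 genes of Notch signalling passed, with a median of -0.05 (-0.18 and -0.16 scaled). Without overlap of the groups, 2 of the 16 were lower, against 0.52% of all genes, and none higher, against 1.51%. Nrarp, which Notch induces and which in turn inhibits it, was at 11.2, 12.8, 13.5, 12.3 and 8.02 FPKM in NS 1 to NS 5 and 6.20, 5.49, 5.38, 4.92 and 6.52 in AngII 6 to AngII 10 (log2 -0.89 with SE 0.17, adjusted p = 0.075 in limma). Hes1, a repressor that Notch induces, was at 12.1 to 17.8 FPKM in NS and 4.55 to 11 in AngII (log2 -0.73 with SE 0.23, adjusted p = 0.502 in limma), with AngII 6 the lowest. Lfng, a sugar transferase that modifies Notch receptors, lay on the higher side at 1.06, and the receptor genes Notch3 and Notch4 at -0.15 and 0.23 (log2).

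The insulin receptor adaptor Irs2 fell. Irs2, which couples the insulin and IGF receptors to PI3 kinase, was at 63.97, 47.02, 40.7, 42.4 and 28.3 FPKM in NS 1 to NS 5 and 14.7, 15.7, 18.7, 15.98 and 21.4 in AngII 6 to AngII 10. NS 1 was the highest and AngII 10, the highest of its group, stayed below NS 5, the lowest of the NS libraries (fell, log2 -1.28 with SE 0.21, adjusted p = 0.038 in limma). The gene lies at chr8:10984681-11008458 on the minus strand. Irs1, its close relative, was at 5.38 to 11.6 FPKM in NS and 3.34 to 5.46 in AngII and overlapped by AngII 10 (log2 -0.75 with SE 0.18, adjusted p = 0.214 in limma). Foxo1 and Foxo3, transcription factors that insulin signalling keeps out of the nucleus, were at 8.03 to 11.9 FPKM in NS and 13.2 to 16.5 in AngII and at 9.85 to 18.7 FPKM in NS and 17.2 to 23.3 in AngII (log2 0.51 and 0.60). Neither passed, at a limma adjusted p of 0.219 and 0.492. Over the 22 genes of insulin and IGF signalling 1 fell, none rose and the median was 0.02 (-0.10 and -0.09 scaled). The remaining gene with an unadjusted p under 0.05 was Igfbp2 at 2.02, picked after its value was seen.

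Most glucocorticoid-induced genes had higher values in AngII, 14 of 17 against 70.1% of all genes. Klf15, a transcription factor that the glucocorticoid receptor induces, was at 13.4, 13, 23.01, 16.7 and 25.3 FPKM in NS 1 to NS 5 and 45.2, 36.5, 36.8, 37.9 and 40.1 in AngII 6 to AngII 10. NS 3 and NS 5 were the highest of their group and lay below AngII 7, the lowest of its own (rose, log2 1.11 with SE 0.18, adjusted p = 0.0309 in limma). The gene spans chr6:90462576-90475238 on the plus strand. Of 17 genes of the list 1 rose, none fell and 16 did not pass. The median was 0.57, against 0.12 for all genes (0.46 and 0.41 scaled). At an unadjusted p under 0.05 there were 9 higher genes, or 9 of 17 against 5.43% of all genes, and 1 lower, Sgk1 (-0.40), named after its value was seen. Over the fits without 1 library the median ran from 0.46 to 0.68, and it was 0.56 with the mesothelial covariate and 0.59 without AngII 7 and AngII 9.

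Of the 17 genes 4 were higher without overlap of the groups, against 1.51% of all genes, and of these Klf15 alone passed. Tsc22d3, which carries anti-inflammatory effects of glucocorticoids, stood at 25.8, 36.8, 67.1, 29.1 and 34.5 FPKM in the NS libraries, in order of their number, and at 139, 82.6, 85.9, 101 and 73.1 in the AngII libraries (log2 1.34 with SE 0.27, adjusted p = 0.107 in limma). NS 3 was far above the other NS libraries but below AngII 10, the lowest AngII library. Ddit4, an inhibitor of the growth kinase mTOR, was at 36.4, 79.2, 113, 80.3 and 110.0 FPKM in NS 1 to NS 5 and 205, 255, 191, 257 and 141 in AngII 6 to AngII 10 (log2 1.38 with SE 0.29, adjusted p = 0.118 in limma). Nfkbia, the inhibitor of NF-κB, was at 38.7, 52.6, 64.3, 69.9 and 74.8 FPKM in NS 1 to NS 5 and 111, 150.0, 108, 132 and 88.5 in AngII 6 to AngII 10 (log2 0.97 with SE 0.19, adjusted p = 0.0833 in limma). Mt1, a metallothionein, overlapped at 294 to 519 FPKM in NS and 437 to 962 in AngII (log2 0.67). Pdk4, a kinase that shuts off pyruvate dehydrogenase, did so too at 242 to 872 FPKM in NS and 152 to 789 in AngII (log2 -0.51).

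Clock genes swing with the hour of the day and part of them answer glucocorticoids. The labels give no hour of sampling. None of 13 core clock genes and none of 9 output factors passed. Per2, a core repressor, was at 2.74, 1.75, 2.72, 2.99 and 3.42 FPKM in NS 1 to NS 5 and 4.53, 4.45, 6.49, 5.04 and 4.93 in AngII 6 to AngII 10, without overlap (log2 0.72 with SE 0.17, adjusted p = 0.196 in limma). Nr1d1, another repressor with a large daily swing, overlapped at 11.3 to 26.4 FPKM in NS and 9.27 to 27.7 in AngII (log2 -0.13), and Per1 and Per3 did as well at 0.37 and 0.52. Among output factors, Wee1, a kinase that delays mitosis, was at 1.58 to 3.29 FPKM in NS and 5.22 to 6.65 in AngII (log2 0.89 with SE 0.17, adjusted p = 0.0833 in limma) and Dbp, a transcription factor under direct clock control, at 1.92 to 3.91 FPKM in NS and 4.15 to 6.50 in AngII (log2 0.69 with SE 0.20, adjusted p = 0.416 in limma), both without overlap. Without overlap of the groups, 1 of 13 core genes and 2 of 9 output factors were higher, against 1.51% of all genes, and none lower. The medians were 0.11 for the core and 0.18 for the output factors (0.01 and -0.06 scaled for the core, and 0.07 and 0.02 scaled for the output factors), against 0.12 for all genes.

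Promoters of the genes that passed were read from RefSeq (GRCm38.p6), as the 250 bases before and 50 after the start site. Of the 12 genes, 5 had such a window: Dusp10, Gadd45b, Irs2, Kcna5 and Klf15. The letters searched, on both strands, were CACGTG (the E-box read by clock and Myc-type factors), a palindrome of the glucocorticoid receptor (ACA and TGT with any 3 bases between them, and a G and a C each 1 base further out), TGACGTCA (the cAMP response element) and TGANTCA (the AP-1 site). Windows are shown for the 4 genes in which a match was found, 5′ to 3′ on the strand of the gene, with matches in capitals.
Klf15: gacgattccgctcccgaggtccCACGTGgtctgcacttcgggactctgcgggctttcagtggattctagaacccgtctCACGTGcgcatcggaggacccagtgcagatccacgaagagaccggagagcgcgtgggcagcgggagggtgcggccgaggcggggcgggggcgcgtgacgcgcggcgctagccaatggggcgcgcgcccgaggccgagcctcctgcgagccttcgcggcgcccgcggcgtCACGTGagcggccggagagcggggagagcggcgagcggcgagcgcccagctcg
Gadd45b: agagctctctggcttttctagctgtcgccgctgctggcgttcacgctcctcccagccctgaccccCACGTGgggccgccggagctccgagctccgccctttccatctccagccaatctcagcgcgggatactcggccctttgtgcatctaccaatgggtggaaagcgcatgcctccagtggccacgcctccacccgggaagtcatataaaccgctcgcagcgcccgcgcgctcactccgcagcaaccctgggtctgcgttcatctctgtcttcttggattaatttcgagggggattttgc
Irs2: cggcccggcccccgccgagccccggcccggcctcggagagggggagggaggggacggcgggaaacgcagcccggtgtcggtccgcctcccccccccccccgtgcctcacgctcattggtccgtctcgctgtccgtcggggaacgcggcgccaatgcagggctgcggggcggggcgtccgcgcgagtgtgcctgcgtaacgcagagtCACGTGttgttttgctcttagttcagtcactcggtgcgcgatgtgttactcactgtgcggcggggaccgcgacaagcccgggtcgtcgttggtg
Kcna5: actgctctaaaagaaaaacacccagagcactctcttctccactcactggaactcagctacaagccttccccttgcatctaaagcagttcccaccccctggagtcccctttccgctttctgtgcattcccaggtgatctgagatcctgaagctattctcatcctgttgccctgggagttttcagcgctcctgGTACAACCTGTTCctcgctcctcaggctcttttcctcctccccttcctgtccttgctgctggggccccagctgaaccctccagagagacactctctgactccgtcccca
The windows lie at chr6:90462326-90462625 (plus strand), chr10:80929841-80930140 (plus strand), chr8:11008880-11009179 (minus strand) and chr6:126535506-126535805 (minus strand). In the first 3 the capitals mark CACGTG, which begins at -228, -172 and -3 from the start site in Klf15, at -185 in Gadd45b and at -44 in Irs2. It was thus found in 3 of 5 windows, against 7.15% of the 32851 windows of the same length in the table. In Kcna5 the capitals mark a match to the glucocorticoid receptor palindrome at -59, a pattern held by 0.475% of windows. No match to TGACGTCA (1.79% of windows) or TGANTCA (7.81%) was found in the 5 windows, and Dusp10 held none of the 4 patterns. Irs2, which fell, and Klf15 and Gadd45b, which rose, share the same letters, and a match is a description of the sequence alone.

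Genes of vessel tone included 1 that rose and 1 that fell. Kcna5 encodes a voltage-gated potassium channel that holds smooth muscle relaxed. It was at 3.98, 4.30, 7.21, 4.97 and 4.70 FPKM in NS 1 to NS 5 and 14.1, 11, 12.7, 10.9 and 11.01 in AngII 6 to AngII 10. NS 3 was the highest of its group and stayed below all AngII libraries (rose, log2 1.12 with SE 0.16, adjusted p = 0.0248 in limma). The gene lies at chr6:126532551-126535412 on the minus strand. None of the other 14 smooth muscle potassium channels tested passed (median of the list 0.06; -0.01 and -0.07 scaled). Contractile smooth muscle markers had a median of -0.01 (-0.12 and -0.17 scaled). Acta2 and Myh11, the smooth muscle actin and myosin, were at 776 to 1433 FPKM in NS and 553 to 1814 in AngII and at 204 to 287 FPKM in NS and 136 to 360.5 in AngII, with AngII 8 and AngII 9 at the low end.

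Dlc1 encodes a protein that switches RhoA off. It stood at 71.05, 54.05, 41.1, 68.8 and 62.5 FPKM in the NS libraries, in order of their number, and at 36.8, 27.4, 28.5, 29.9 and 29.97 in the AngII libraries. NS 3 came closest to the AngII libraries and AngII 6 to the NS libraries, without overlap (fell, log2 -0.92 with SE 0.15, adjusted p = 0.0446 in limma). The difference was -0.58 among the 5 libraries rich in nerve RNA and -1.18 among the other 5, and the gene covers chr8:36567751-36953143 on the minus strand. Of 19 genes of RhoA signalling it alone passed, and the median was 0.13 (-0.01 and -0.02 scaled). Without overlap of the groups, 2 of the 19 were higher, against 1.51% of all genes, and 1 lower, against 0.52%. Rhob, a small GTPase induced by stress, was at 161 to 209 FPKM in NS and 254 to 331 in AngII, without overlap (log2 0.64 with SE 0.14, adjusted p = 0.146 in limma). Rgs2, which turns off signalling by receptors of angiotensin II and other constrictors, was at 48.6, 42.2, 28.1, 34.5 and 66.2 FPKM in NS 1 to NS 5 and 94.9, 88.2, 143, 86.7 and 86.3 in AngII 6 to AngII 10 (log2 1.20 with SE 0.34, adjusted p = 0.388 in limma). AngII 8 was the highest, and no NS library reached the lowest AngII library. Rock1, a kinase that RhoA activates, overlapped between the groups (log2 0.74).

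The renin-angiotensin system itself showed no call among 9 genes (median 0.14; 0.06 and 0.03 scaled). Agtr1a, the type 1 receptor, was at 6.79, 17.9, 15.8, 4.65 and 6.96 FPKM in NS 1 to NS 5 and 11.3, 6.06, 5.34, 12.6 and 5.14 in AngII 6 to AngII 10, with wide overlap (log2 -0.25 with SE 0.36, adjusted p = 0.86 in limma). Ace, the converting enzyme, was at 42.1 to 77.6 FPKM in NS and 47.5 to 85.7 in AngII. Mc5r, a melanocortin receptor known from glands and fat cells, rose from a low level. It was at 0.891, 0.865, 0.997, 0.619 and 0.818 FPKM in NS 1 to NS 5 and 3.16, 2.30, 3.56, 2.99 and 2.90 in AngII 6 to AngII 10. All AngII libraries stood above 2 FPKM and all NS libraries below 1 (log2 1.11 with SE 0.18, adjusted p = 0.0309 in limma). It lies at chr18:68337596-68342446 on the plus strand. A low gene is compressed by the pseudocount, and with 0.1 in place of 1 the difference was 1.72. Of 11 adrenergic and melanocortin receptors none fell, and Adrb1, the main cardiac β-adrenoceptor, stood on the lower side at 3.00 to 10.6 FPKM in NS and 1.21 to 2.98 in AngII (log2 -1.28 with SE 0.27, adjusted p = 0.118 in limma), named after its value was seen.

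Among enzymes of the matrix and of sugar chains 2 genes fell. Adamts4, a protease that cuts aggrecan and versican, was at 3.92, 3.18, 3.99, 2.84 and 2.71 FPKM in NS 1 to NS 5 and 0.742, 0.715, 0.960, 0.906 and 1.21 in AngII 6 to AngII 10. The highest AngII library, AngII 10, lay well below NS 5, the lowest NS library (fell, log2 -1.18 with SE 0.18, adjusted p = 0.0309 in limma). It maps to chr1:171250421-171260637 on the plus strand. B3gat2, a glucuronyltransferase that acts on sugar chains of proteins, was listed at 0.931, 1.35, 1.20, 1.18 and 1.20 FPKM in the NS libraries, in order of their number, and at 0.0597, 0.0210, 0.261, 0 and 0.00560 in the AngII libraries. Every AngII library was at or near 0, with AngII 8 the highest, while each NS library stood close to 1 (fell, log2 -1.02 with SE 0.12, adjusted p = 0.00549 in limma). All AngII libraries lay below the 0.5 FPKM of the filter. The NS and Lien libraries alone brought B3gat2 into the test, a limit on its call. It maps to chr1:23761753-23849158 on the plus strand, and with a pseudocount of 0.1 its difference was -3.08. B3gat2 was counted in the list of glycosaminoglycan linker and chain enzymes, and none of the other 15 genes tested there passed. Whether it acts on such chains in this tissue was not tested. Of 19 matrix proteases and inhibitors Adamts4 alone passed (median 0.22; 0.08 and 0.08 scaled). Adamts9, another protease that cuts versican, went the other way at 3.76, 4.28, 6.31, 6.66 and 4.71 FPKM in NS 1 to NS 5 and 8.76, 7.11, 13.4, 8.73 and 11.1 in AngII 6 to AngII 10, without overlap (log2 0.81 with SE 0.19, adjusted p = 0.211 in limma). Plau, the urokinase, was at 4.49 to 15.5 FPKM in NS and 1.42 to 8.07 in AngII (log2 -0.95). Mmp2, Timp2 and Timp3, the gelatinase and its inhibitors, stood on the higher side at 0.72, 0.38 and 0.32, and none passed.

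Collagens lay on the higher side without passing. Of 15 fibrillar collagens and fibril partners 14 were higher, against 70.1% of all genes, with a median of 0.38 (0.24 and 0.23 scaled). Under either scaling 11 were higher. The median was 0.19 with cardiac and skeletal muscle covariates (11 higher), against 0.09 for all genes. With the mesothelial covariate it was 0.06 (9 higher), against -0.02. Leaving out NS 3 and AngII 9 gave 0.58, and leaving out AngII 7 and AngII 9 gave 0.56. Col1a1 stood at 154, 165, 362, 24.6 and 145 FPKM in the NS libraries, in order of their number, and at 386, 306, 449, 164 and 279 in the AngII libraries (log2 1.23 with SE 0.61, adjusted p = 0.708 in limma). NS 3 reached the level of the AngII libraries and AngII 9 that of the NS libraries. Col3a1 was at 136 to 422 FPKM in NS and 194 to 503 in AngII (log2 0.76), Col1a2 at 53.6 to 451 FPKM in NS and 254 to 535 in AngII (log2 1.07) and Tnc, tenascin C of remodeled matrix, at 0.179 to 3.31 FPKM in NS and 1.18 to 8.02 in AngII (log2 1.10). NS 3, which held skeletal muscle and nerve RNA, was the highest of its group for Col1a1, Col1a2 and Col3a1, and the part of that tissue in these values was not tested. Eln, elastin, was at 189 ± 36.9 FPKM in NS and 229 ± 58.5 in AngII (SD, n = 5 each).

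TGF-β signalling, part of the question of the study, gave no call. Of 14 ligands, receptors and latent binders 10 were higher (median 0.26; 0.12 and 0.10 scaled). Tgfb1 was at 13.7, 25.5, 20.5, 14.3 and 13.6 FPKM in NS 1 to NS 5 and 22.9, 36.9, 18.7, 40.03 and 14.8 in AngII 6 to AngII 10 (log2 0.53 with SE 0.30, adjusted p = 0.732 in limma). AngII 7 and AngII 9, the 2 libraries richest in lymphocyte RNA, were the highest. Of 13 Smads and their inhibitors none passed (median 0.07; -0.07 and -0.08 scaled). Those with an unadjusted p under 0.05 were the inhibitory Smad6 at -0.59 and Smad7 at 0.74, picked after their values were seen. Smad3 differed by 0.07 (SE 0.14). Of 17 target genes 14 were higher, against 70.1% of all genes (median 0.41; 0.30 and 0.27 scaled), and 12 and 11 were under the 2 scalings. The median was 0.06 with cardiac and skeletal muscle covariates, against 0.09 for all genes. With the mesothelial covariate it was -0.12, against -0.02. Ccn2, connective tissue growth factor, was at 321, 359, 429, 392 and 439 FPKM in NS 1 to NS 5 and 1103, 636, 379, 249 and 925 in AngII 6 to AngII 10 (log2 0.57 with SE 0.53, adjusted p = 0.794 in limma). AngII 6, AngII 7 and AngII 10 stood above every NS library while AngII 8 and AngII 9 did not.

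**Figure D3:**
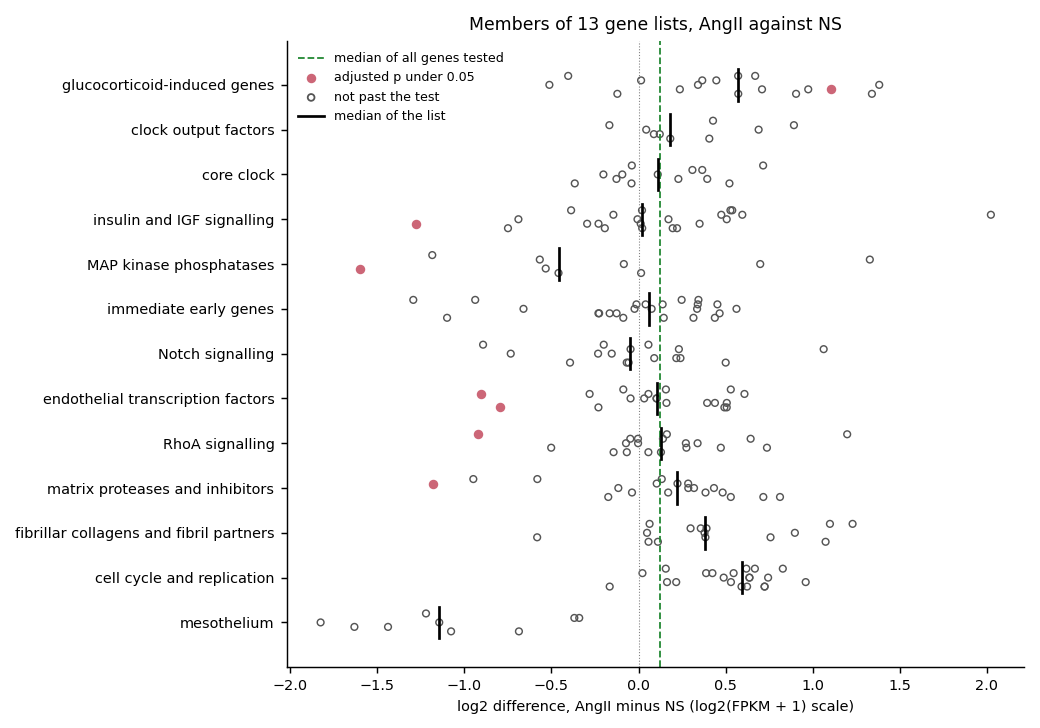
Log2 difference of AngII minus NS for each tested member of 13 gene lists. Open circles did not pass, filled red circles had a limma adjusted p under 0.05, the black stroke is the median of the list and the dashed green line the median of all genes tested (0.12). The median of the glucocorticoid-induced list was 0.57, that of cell cycle genes 0.59 and that of the mesothelial list -1.14.

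Mesothelial genes, which mark the lining around organs and not the vessel wall, moved with the groups. All 9 tested members were lower in AngII, with a median of -1.14 (-1.25 and -1.21 scaled), 6 had an unadjusted p under 0.05 (against 1.6% of all genes on the lower side) and none passed. Their mean on the log2(FPKM + 1) scale was 2.01, 1.59, 2.23, 2.27 and 2.61 in NS 1 to NS 5 and 0.615, 0.517, 2.23, 0.972 and 0.966 in AngII 6 to AngII 10. Msln, mesothelin, was at 5.47, 3.52, 0.618, 8.16 and 12.5 FPKM in NS 1 to NS 5 and 0.562, 0.0550, 10.6, 0.992 and 1.24 in AngII 6 to AngII 10. Upk3b, a uroplakin of mesothelium, was at 7.41, 4.42, 2.79, 8.29 and 15.5 FPKM in NS 1 to NS 5 and 0.0783, 0.0506, 12.1, 0.477 and 1.17 in AngII 6 to AngII 10 (log2 -1.82 with SE 0.67, adjusted p = 0.594 in limma). AngII 8 stood with the NS libraries in both, and NS 3 was the lowest NS library. Upk1b and the keratins Krt18 and Krt19 differed by -1.63, -1.08 and -1.44, with NS 3 the highest. Wt1 and Lrrn4 differed less, by -0.37 and -0.34, and NS 3 lay below every AngII library for both (0.0199 and 0.654 FPKM). The list mean of NS 3 thus rested mainly on keratins and Upk1b, so the list did not separate that library by all of its markers. Summed over the list, the level was 21.4 to 74.6 FPKM in NS and 5.95 to 44.05 in AngII. Krt8 was listed at 0 in AngII 6, and Muc16 in NS 3, AngII 7 and AngII 9. The part of mesothelial RNA in the 12 calls was not tested, beyond the covariate above, which followed the groups themselves.

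Cell cycle genes lay on the higher side together with lymphocyte markers. Of 21 genes 20 were higher, with a median of 0.59 (0.45 and 0.45 scaled), 10 had an unadjusted p under 0.05 (against 5.43% of all genes on the higher side) and none passed. Birc5, survivin of dividing cells, was at 0.487, 0.446, 0.236, 0.302 and 0.122 FPKM in NS 1 to NS 5 and 1.17, 2.76, 0.981, 3.49 and 0.490 in AngII 6 to AngII 10, without overlap (log2 0.96 with SE 0.31, adjusted p = 0.512 in limma). Ccna2, a cyclin of S phase, was at 0.673, 0.541, 1.05, 0.456 and 0.736 FPKM in NS 1 to NS 5 and 1.75, 3.15, 1.02, 3.46 and 0.707 in AngII 6 to AngII 10, with AngII 7 and AngII 9 the highest (log2 0.74 with SE 0.27, adjusted p = 0.583 in limma). Mcm3, a subunit of the replicative helicase, was likewise highest in AngII 9 and AngII 7 (log2 0.72), and Pcna, the sliding clamp, differed by 0.16. Those 2 libraries also had the highest T and B cell markers. T cell markers, 14 of 14 higher, summed to 7.80 to 113 FPKM in NS and 5.64 to 252 in AngII, and B cell markers, 11 of 11 tested higher, to 19.9 to 190.2 FPKM in NS and 3.69 to 787 in AngII, with none of the T cell markers at 0. Without AngII 7 and AngII 9 the median of the cell cycle list was 0.14, against 0.05 for all genes, with 18 of 21 still higher. The part of lymphocytes in the remainder was not tested.

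Inflammatory genes gave no call. The medians were 0.34 over 17 NF-κB genes and targets (0.22 and 0.19 scaled), 0.17 over 17 chemokines (0.04 and 0.05 scaled), 0.31 over 21 interferon-stimulated genes (0.20 and 0.19 scaled) and 0.32 over 13 macrophage markers (0.20 and 0.16 scaled). Without AngII 7 and AngII 9 they were 0.07, -0.05, -0.04 and 0.04 in the same order. Cd3e and Cd79a, parts of the T and B cell receptors, were at 0.0663 to 4.29 FPKM in NS and 0.0433 to 14.3 in AngII and at 2.75 to 19.8 FPKM in NS and 0.424 to 49.9 in AngII, with those 2 libraries the highest.

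Other genes that stood near the threshold on the higher side were spread over several functions. Ptpn2, a phosphatase of cytokine signalling, was at 9.99, 10.1, 11.1, 10.5 and 10.8 FPKM in NS 1 to NS 5 and 14.6, 19.6, 14.3, 16.7 and 16.7 in AngII 6 to AngII 10, without overlap (log2 0.59 with SE 0.11, adjusted p = 0.0709 in limma). Fam117b was at 5.53 to 8.03 FPKM in NS and 10.3 to 13.7 in AngII (log2 0.72 with SE 0.13, adjusted p = 0.0699 in limma). Dnajc25, a J-domain protein, was at 3.81 to 5.44 FPKM in NS and 7.85 to 8.33 in AngII and varied little within AngII (log2 0.63 with SE 0.12, adjusted p = 0.0833 in limma). Gramd1a, a carrier of cholesterol at membrane contacts, Itpripl1 and Zfp39 differed by 0.60, 0.95 and 0.67, and none of them had overlapping groups.

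The table is per transcript, which allowed a look below the gene. Of 41843 transcripts tested, 5 passed (0.0119%), 1 that rose and 4 that fell, while 2543 (6.08%) had an unadjusted p under 0.05. The forms B3gat2-201 and Dusp10-201 were among those that fell, and they hold all or nearly all of the level of their genes, so they add nothing to the values above. For Adamts4 1 form passed. Adamts4-203 was listed at 3.63, 2.52, 3.45, 2.42 and 2.12 FPKM in the NS libraries, in order of their number, and at 0, 0, 0.520, 0 and 0 in the AngII libraries (fell, log2 -1.80 with SE 0.23, adjusted p = 0.0233 in limma). Adamts4-202, of nearly the same length (4389 against 4386 bases), overlapped at 0.286 to 0.654 FPKM in NS and 0.239 to 0.906 in AngII (log2 0.14 with SE 0.16, adjusted p = 0.913 in limma). How fragments are divided between forms that share most of their sequence is an estimate of the authors' tool. The difference between the 2 forms was not tested.

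Naa20-201, a form of the gene of the catalytic subunit of an N-terminal acetyltransferase, rose. It was at 1.11, 0.727, 0.538, 1.04 and 0.695 FPKM in NS 1 to NS 5 and 4.69, 3.43, 3.09, 3.39 and 3.03 in AngII 6 to AngII 10, without overlap (log2 1.31 with SE 0.18, adjusted p = 0.036 in limma). Its call was lost in each of the 10 fits without 1 NS or AngII library, at an adjusted p of 0.056 to 0.119. The remaining transcript, MERGE.18402.5, has no public identifier or position and was named by the authors' assembly. It stood at 6.51, 1.84, 2.95, 3.97 and 3.73 FPKM in the NS libraries, in order of their number, and at 0, 0, 0, 0 and 0.373 in the AngII libraries (fell, log2 -2.10 with SE 0.23, adjusted p = 0.00807 in limma). No AngII library reached the 0.5 FPKM of the filter, so the NS libraries and Lien 15 alone brought it into the test. For Dlc1, the form Dlc1-201 held most of the level and did not overlap, at 37.6 to 65.2 FPKM in NS and 23.9 to 32.5 in AngII (log2 -0.97 with SE 0.17, adjusted p = 0.143 in limma). The form Dlc1-206 overlapped at 2.20 to 3.73 FPKM in NS and 2.27 to 5.01 in AngII (log2 0.12). Klf15-201, the main form of Klf15, did not overlap either, at 12.6 to 23.2 FPKM in NS and 28.6 to 41.9 in AngII (log2 1.02 with SE 0.51, adjusted p = 0.845 in limma). The 5 Lien libraries, which enter the spread, ranged from 1.58 to 33.7 FPKM, and in the 10 libraries alone its adjusted p was 0.258. Leaving out 1 library gave 0 to 9 transcripts, namely 0 when AngII 9 was dropped, 1 for NS 2 or AngII 10, 2 for AngII 6 or AngII 7, 3 for NS 1 and 9 for NS 5.

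**Figure D4:**
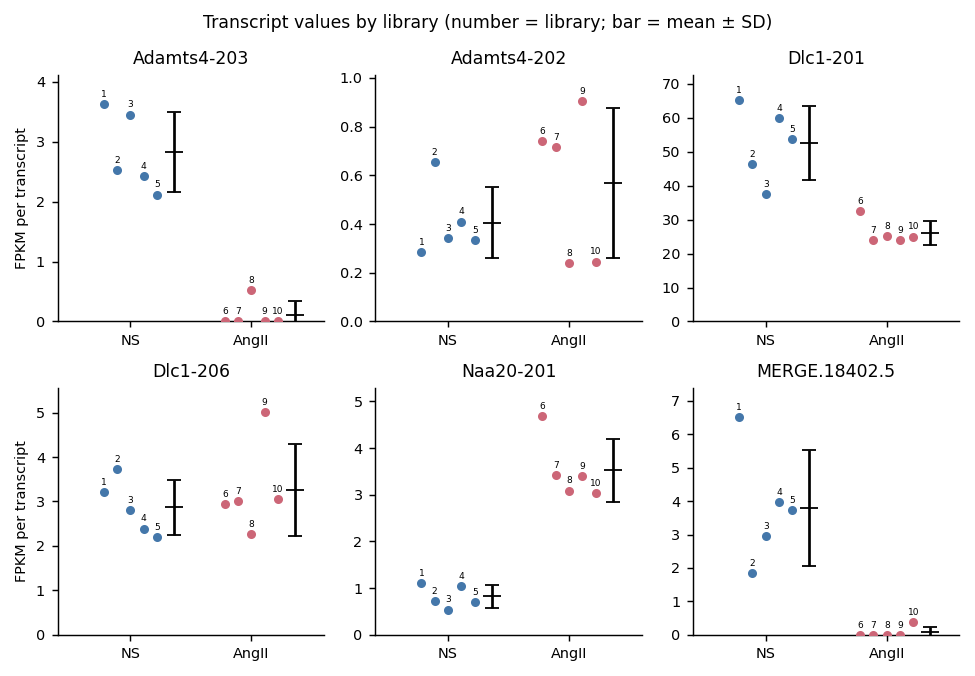
FPKM of 6 transcripts in each NS and AngII library. Each point is a library with its number, and the bar beside the points is the mean ± SD. Adamts4-203 was at or near 0 in AngII while Adamts4-202 overlapped between the groups, and the groups did not overlap for Dlc1-201 but did for Dlc1-206.

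**Figure D5:**
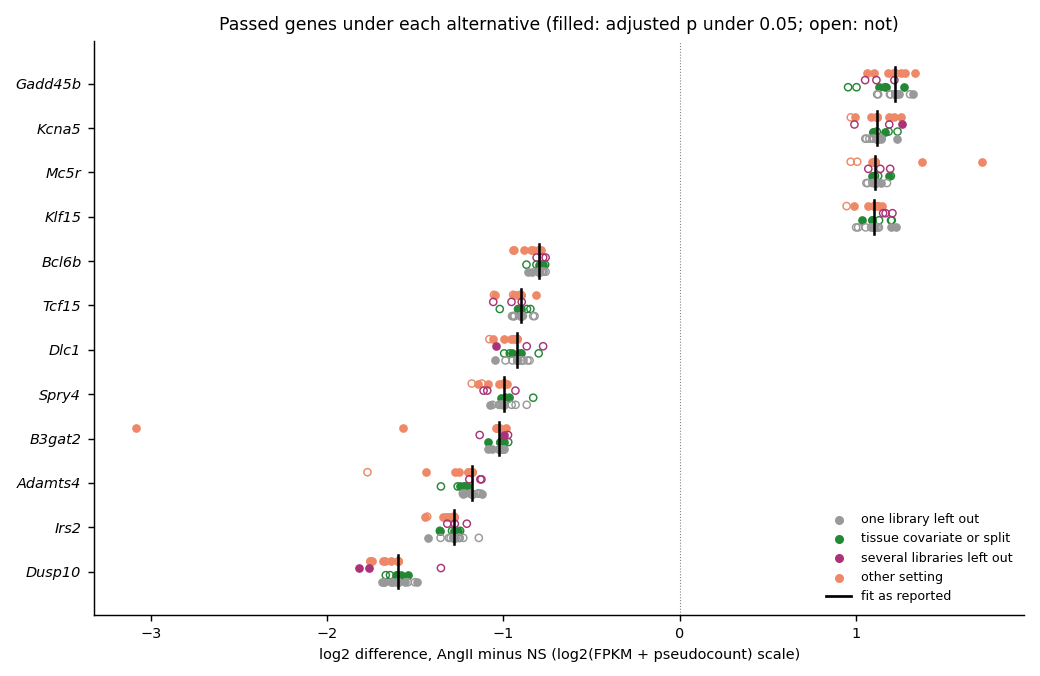
Log2 difference of AngII minus NS for the 12 genes under each alternative fit. Filled points had a limma adjusted p under 0.05, open points did not, colours give the kind of alternative and the black stroke is the fit as reported. All points of a gene lie on 1 side of 0, while many are open. The far points of Mc5r and B3gat2 come from smaller pseudocounts.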

How the data were processed

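Total RNA was sequenced after ribosomal RNA depletion, per the labels' protocols. The tissue is vascular per the sample labels, while the extraction protocol names hearts. The authors deposited a table of 131437 transcripts by 15 libraries, 101208 with an Ensembl identifier and 30229 assembled. The unit is named in no header or label. As deposited, the values are read as FPKM, since they are not whole and sum to 498958 to 542490 in the 10 libraries compared. Low values fell on even steps (99.7% to 99.8% within 0.05 of one), which would give 1.58e+07 to 1.93e+07 fragments per library if 4 steps are 1 fragment and more otherwise, so depth is not known firmly. The sources used here do not give strand, aligner, build or annotation, so overlapping genes on opposite strands cannot be told apart. limma is named in the submitters' processing notes without a role.

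Transcripts were summed to genes of GENCODE M21 (GRCm38), 99965 matched and 1243 not. Those reaching 0.5 FPKM in 5 or more libraries entered limma 3.58.1 (R 4.3.3) as log2(FPKM + 1), with empirical Bayes, trend and robust settings, in 1 fit of 3 group means with 12 residual degrees of freedom. The contrast AngII minus NS was tested two-sided, with Benjamini-Hochberg adjustment over all genes, or over all transcripts. Fold changes on this scale understate those of low genes. The fit was also run on simulated data in which each gene varied independently. Those data held no tissue RNA that moves many genes together, so they give no rate of false calls for these libraries. Pearson correlations between libraries across genes were 0.864 to 0.958, so none was a copy of another.

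Named genes are those that passed, the 10 with the smallest p on either side among the rest (mean of at least 1 FPKM, standard symbol), from each list described the 2 most abundant members and up to 4 of smallest p, and a fixed set, a few of which are not reported here. The comparison and the 71 lists were chosen with earlier results of these data known. Alternatives were 2 smaller pseudocounts, other filters, 2 scalings, other variance models, tissue covariates, a term for libraries rich in nerve RNA, and leaving out libraries. Tables were made in Python 3.11.15 (pandas 2.3.3 over numpy 2.4.6), and figures in matplotlib 3.10.9.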

Additional observations from a re-analysis of the deposited data

Results flagged for a closer look

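In 35 of the 248 groups of 5 libraries checked (14.1%), 1 library stood apart from the other 4 by more than Dixon's 95% critical value, which chance alone exceeds in about 1 of 20 groups. Many of these groups share a library, so they are not independent.

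AngII 8 stood apart in its group for cardiac and mesothelial genes, with Myh6 at 146 FPKM, Msln at 10.6, Upk3b at 12.1 and Krt19 at 5.97, and marker means of 5.64 for cardiomyocytes and 2.23 for mesothelium on the log2(FPKM + 1) scale. It was also the highest of its group for Rgs2 (143 FPKM), Tob1 (64.4), Dusp6 (21.3), Per2 (6.49) and B3gat2 (0.261).

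NS 3 stood apart for skeletal muscle genes, with Acta1, skeletal actin, at 2717 FPKM and a skeletal muscle marker mean of 9.06. It was also the highest NS library for Col3a1 (422 FPKM), Tsc22d3 (67.1), Notch3 (24.7), Krt19 (19.2) and Upk1b (13.6). AngII 9 stood apart for skeletal muscle as well, at a marker mean of 6.40 and 448 FPKM of Acta1, for neutrophils and monocytes at 3.84, and for Smad3 at 10.01 FPKM.

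NS 2 was the highest of its group for T cell markers (mean 2.98), Cd3e (4.29 FPKM), Cd79a (19.8), Mcm3 (4.78) and Mcm7 (12.7). NS 4 was the lowest for macrophage markers (mean 3.71) and the highest for Spry4 (10.9 FPKM). The other single values were Sik1 at 54 FPKM in NS 1, Igfbp7 at 965 in NS 5, Dlc1 at 36.8 and Hes1 at 4.55 in AngII 6, and Dusp1 at 218 and Tnc at 1.18 in AngII 10.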

How the results depend on the processing

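The 12 genes that passed kept their sign under all alternatives in which they were measured, 407 values in all, but in 189 of them the gene no longer passed. The number of genes that passed, 12 as reported, was 2 with no filter, 23 with quantile normalization, 6 with scaling to one median, 19 in a fit of the 10 libraries alone, 35 with array weights, 24 with a nerve covariate, 26 with a term for nerve-rich libraries, 31 with brown and white adipocyte covariates, 2 with T and B cell covariates, and 0 with cardiac and skeletal muscle covariates or with a mesothelial covariate (limma, 896 and 764 genes at an unadjusted p under 0.05). Without libraries picked after seeing the data it was 7 (without NS 3 and AngII 9), 0 (without NS 1, NS 5 and AngII 8, with 701 at an unadjusted p under 0.05 in limma) and 1 (without AngII 7 and AngII 9). Leaving out 1 library gave 1 to 17 genes. The number of transcripts that passed, 5 as reported, was 3 in the 10 libraries alone, with Adamts4-203 the only one of the 5 that kept its call, 3 with a pseudocount of 0.1 (B3gat2-201, Naa20-201 and MERGE.18402.5), and 0 to 9 without 1 library. Fewer libraries or more terms leave fewer degrees of freedom, and the cause of the other shifts was not tested. No paired analysis was possible because the library numbers of NS (1 to 5) and AngII (6 to 10) share none. The depth behind a value is not known firmly, and values near 0, such as those of B3gat2 in AngII (0 to 0.261 FPKM), rest on few fragments.

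Among the 106 named genes 26 changed sign under at least 1 alternative, all of them genes that had not passed. The log2 difference then took these values. With the mesothelial covariate, it was 0.33 for Pdk4, -0.080 for Igfbp7, -0.17 for Igfbp6, -0.24 for Dusp1, -0.27 for Jund, -0.42 for Rgs5, -0.046 for Timp2, -0.046 for Timp3, -0.027 for Pcna, -0.10 for Mcm7, -0.68 for Acta2, -0.090 for Tgfb1, -0.31 for Mapk3, 0.21 for Ucp1, 2.21 for Myh6, -1.35 for Th, -0.066 for Cd3e and -1.23 for Cd79a. With array weights, it was 0.11 for Nr1d1 and 0.46 for Acta1. With adipocyte covariates, it was 0.0072 for Nr1d1, -0.19 for Dusp1, -0.062 for Jund, 0.028 for Mfng, -0.33 for Acta2 and -0.053 for Eln. Without NS 3 and AngII 9, it was 0.073 for Nr1d1, -0.10 for Noct, 0.15 for Myh11, 0.028 for Acta1 and -0.088 for Cd79a. With T and B cell covariates, it was -0.055 for Bhlhe40, -0.070 for Igfbp6, -0.074 for Dusp1, -0.0044 for Rgs5, 0.012 for Myh11, -0.034 for Smad3, -0.13 for Mapk3, 0.031 for Ucp1, 0.059 for Myh6 and -0.91 for Th. With quantile normalization, it was -0.10 for Dusp1, -0.028 for Jund, -0.013 for Acta2 and -0.068 for Smad3. With scaling to one median, it was -0.15 for Dusp1, -0.12 for Jund, -0.069 for Acta2, -0.078 for Smad3 and -0.0017 for Mapk3. Without mitochondrial genes, it was -0.022 for Dusp1. With the nerve covariate, it was -0.0041 for Dusp1. With cardiac and skeletal muscle covariates, it was -0.11 for Dusp1, -0.071 for Jund, -0.15 for Rgs5 and -0.45 for Acta2. Without NS 1, NS 5 and AngII 8, it was -0.10 for Dusp1 and 0.16 for Myh11. With the term for nerve-rich libraries, it was -0.0088 for Jund. Without AngII 7 and AngII 9, it was -0.045 for Smad3, -0.018 for Cd3e and -0.89 for Cd79a. Without 1 library the differences of those that turned ran from -0.32 to 0.052 for Nr1d1, -0.059 to 0.40 for Noct, -0.17 to 0.10 for Dusp1, -0.034 to 0.10 for Jund, -0.40 to 0.018 for Mfng, -0.086 to 0.34 for Acta2, -0.22 to 0.13 for Myh11, -0.019 to 0.12 for Smad3 and -1.62 to 1.15 for Acta1.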

Other observations

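Some gene groups not described above lay to one side as deposited, none with a gene that passed. Ribosomal protein genes were higher in 27 of 28, with a median log2 of 0.30 (0.21 and 0.14 scaled), and without the lymphocyte-rich AngII 7 and AngII 9 in 11 of 28, with a median of -0.04. Antigen presentation genes were higher in 13 of 15, with a median of 0.65, and without those 2 libraries in 8 of 15, with a median of 0.01. Glycolytic genes were higher in 4 of 16 (median -0.21; -0.29 and -0.36 scaled) and fatty acid oxidation genes in 3 of 16 (median -0.14; -0.25 and -0.29 scaled). Cholesterol synthesis genes were higher in 12 of 15 (median 0.30; 0.17 and 0.16 scaled), and Dhcr7, the last enzyme of the pathway, was at 3.38, 0.606, 3.27, 0.173 and 0.434 FPKM in NS 1 to NS 5 and 6.23, 5.08, 3.96, 7.86 and 3.80 in AngII 6 to AngII 10, without overlap (log2 1.5 with SE 0.36, adjusted p = 0.211 in limma), named after its value was seen.

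Sympathetic neuron markers were higher in 14 of 14, and Th, tyrosine hydroxylase, was at 0.0321, 82.1, 69.8, 0.128 and 0 FPKM in NS 1 to NS 5 and 107, 13.5, 6.25, 85.4 and 1.68 in AngII 6 to AngII 10.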
